A study of Mus musculus with 10 samples.

Results

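The clustered, replication-dependent genes of histone H3 were followed across 5 mESC lines with 2 RNA-Seq libraries each. The 10 genes were taken from a fixed list of symbols, *Hist1h3a* to *Hist1h3i* and *Hist2h3b*, out of 20325 genes in the deposited table, and the rule itself uses symbols and no measured value, although the family was picked with earlier results of these data known. The table holds 12 H3 genes of the histone clusters, and *Hist2h3c1* and *Hist2h3c2-ps* were not on the list. Of the 10 genes, 7 reached 1 CPM (counts relative to the total of the library) in 2 or more libraries and were tested, and 3 did not (*Hist1h3e*, *Hist1h3f* and *Hist1h3g*).

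H3 is a core histone of the nucleosome. The clustered genes encode the canonical H3 proteins, which are made in S phase and are deposited behind the replication fork by the CAF-1 chaperone. Their mRNAs have no introns and usually end in a stem-loop rather than a polyA tail, and the stem-loop is bound by SLBP. H3.3 is the variant made throughout the cell cycle, from the polyadenylated mRNAs of *H3f3a* and *H3f3b*, and is deposited by HIRA or by DAXX with ATRX.

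The lines fall into 2 families. Daxx-/- mESCs (strain 129/SvEv) lack functional DAXX, and Daxx-/-;WT mESCs carry in addition a transgene of WT murine DAXX. H3.3 KO mESCs (strain 129 x C57BL/6J) lack H3.3, and 2 lines made from it express an H3.3 transgene. In H3.3 KO;WT it is the WT protein, and in H3.3 KO;L126A-L130A it carries a double substitution (also spelled I130A by the study). The transgenes were tagged (FLAG for DAXX, FLAG-HA for H3.3) and were delivered by a lentivirus with an EF1 promoter, followed by puromycin selection, so each rescued line is a transduced, selected population compared with its knockout line. All cells were grown without feeders in 2i with LIF. The nucleotide sequence of the H3.3 transgenes is not given in the sources used here, and the share of the counts below that came from transgene reads was not tested.

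The molecule is labelled polyA RNA, so levels of the clustered genes are levels in that fraction, and in bulk libraries fewer cells with an RNA and less RNA per cell cannot be told apart. The libraries held 15463625 to 21396585 expected counts, and a count of 3, the floor used here, stands for 0.140 to 0.194 CPM. Naive mESC markers were at 1 CPM or more in all libraries for 9 of the 9 listed genes found in the table. Summed fibroblast markers (8 genes) were between 5.43 and 51.7 CPM, with *Dcn* at 0 in both libraries of 4 lines. In each line 2 or 3 of the 8 were at 1 CPM or more in both libraries. *Thy1* was at 22.0 and 36.8 CPM in Daxx-/-. Summed primitive endoderm markers (6 genes) were between 4.35 and 17.2 CPM. The study calls the libraries biological replicates, but the labels do not say that they came from separate cultures, and p-values measure the spread between these libraries only.

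The genes lie on mouse chromosomes 13 and 3 (positions from the GENCODE annotation of GRCm38, since the table gives symbols only). Each has 1 annotated transcript with 1 exon. On chromosome 13 they form 2 groups. *Hist1h3h* (21717659 to 21718069, plus strand) and *Hist1h3i* (21782960 to 21783370, minus strand) are 64890 bp apart, and 1752051 bp further on lie *Hist1h3g* (23535422 to 23535951, plus strand), *Hist1h3f* (23544052 to 23545312, plus strand), *Hist1h3e* (23561534 to 23562369, minus strand) and *Hist1h3d* (23575763 to 23577011, plus strand). *Hist1h3c* (23744973 to 23745602, minus strand), *Hist1h3b* (23752267 to 23752886, plus strand) and *Hist1h3a* (23761853 to 23762386, minus strand) follow after a gap of 167961 bp. *Hist2h3b* (chromosome 3, 96268654 to 96269141, plus strand) overlaps *Gm20628* on the minus strand, and since strand-specific counting is not stated, reads of the 2 genes cannot be told apart.

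The coding sequences are 411 bases long with the stop codon in all 10 genes and encode only 2 proteins. *Hist1h3a*, *Hist1h3g*, *Hist1h3h* and *Hist1h3i* encode one, the other 6 genes encode the second, and the 2 differ by 1 residue. Both differ from the H3.3 protein by 4 or 5 of 136 residues. Among the 9 Hist1 genes, 23 of the 411 coding positions vary. The following 60 bases (coding positions 349 to 408, counted from the A of the start codon) hold 9 of these positions. No other in-frame stretch of that length holds more. The bases are shown as the first stretch with that many variable positions. They are taken from the GENCODE transcripts, read 5′ to 3′ on the coding strand, and capitals mark bases that differ from *Hist1h3h*.
Hist1h3h (chr13:21718007-21718066, plus): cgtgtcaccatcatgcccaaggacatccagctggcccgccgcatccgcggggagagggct
Hist1h3a (chr13:23761946-23762005, minus): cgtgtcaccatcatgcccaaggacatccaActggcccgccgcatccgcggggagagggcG
Hist1h3b (chr13:23752728-23752787, plus): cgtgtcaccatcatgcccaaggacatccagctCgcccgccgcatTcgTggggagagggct
Hist1h3i (chr13:21782963-21783022, minus): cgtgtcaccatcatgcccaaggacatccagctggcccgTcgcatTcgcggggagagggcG
Hist1h3d (chr13:23576150-23576209, plus): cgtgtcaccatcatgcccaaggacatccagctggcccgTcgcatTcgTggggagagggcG
Hist1h3g (chr13:23535794-23535853, plus): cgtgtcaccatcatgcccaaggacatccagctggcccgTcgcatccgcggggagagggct
Hist1h3c (chr13:23745090-23745149, minus): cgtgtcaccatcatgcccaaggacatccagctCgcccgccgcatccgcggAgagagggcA
Hist1h3e (chr13:23561958-23562017, minus): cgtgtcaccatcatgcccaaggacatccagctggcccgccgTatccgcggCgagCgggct
Hist1h3f (chr13:23544833-23544892, plus): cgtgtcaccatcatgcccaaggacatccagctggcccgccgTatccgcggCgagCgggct
Hist2h3b (chr3:96269042-96269101, plus): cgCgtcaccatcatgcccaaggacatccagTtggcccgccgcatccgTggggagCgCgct
H3f3a: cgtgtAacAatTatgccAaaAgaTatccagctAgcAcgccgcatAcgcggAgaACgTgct
H3f3b: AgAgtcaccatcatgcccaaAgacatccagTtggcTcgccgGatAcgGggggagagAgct

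*Hist1h3e* and *Hist1h3f* are identical over these bases. Over the whole coding sequence the closest pair was *Hist1h3h* and *Hist1h3g*, which differ at 3 positions (C33T, C138T and C387T, with the base of *Hist1h3h* first). *Hist1h3h* and *Hist1h3i* differ at 4, *Hist1h3h* and *Hist1h3a* at 5, and *Hist1h3b* and *Hist1h3d* at 5. *Hist2h3b* differs from the Hist1 genes at 19 to 25 positions. *H3f3a* and *H3f3b* stand much further away, at 90 to 94 and 75 to 80 differences from the 10 genes. Of the 362 stretches of 50 bases in each coding sequence, 19 were unique to *Hist1h3b* and 22 to *Hist1h3h* among these 12 genes. *Hist1h3a* had 122, the most of the Hist1 genes. The count was 294 for *Hist2h3b* and all 362 for *H3f3a* and for *H3f3b*. A read of that length from the coding part of *Hist1h3b* or *Hist1h3h* would therefore match another clustered H3 gene in most places, and RSEM splits such reads by estimate. Only 4 of the 100 values of the 10 genes were whole numbers (4.0%, within 0.005), against 48.7% of the values of the genes tested, so the split of reads among the 10 genes is uncertain.

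**Figure D1:**
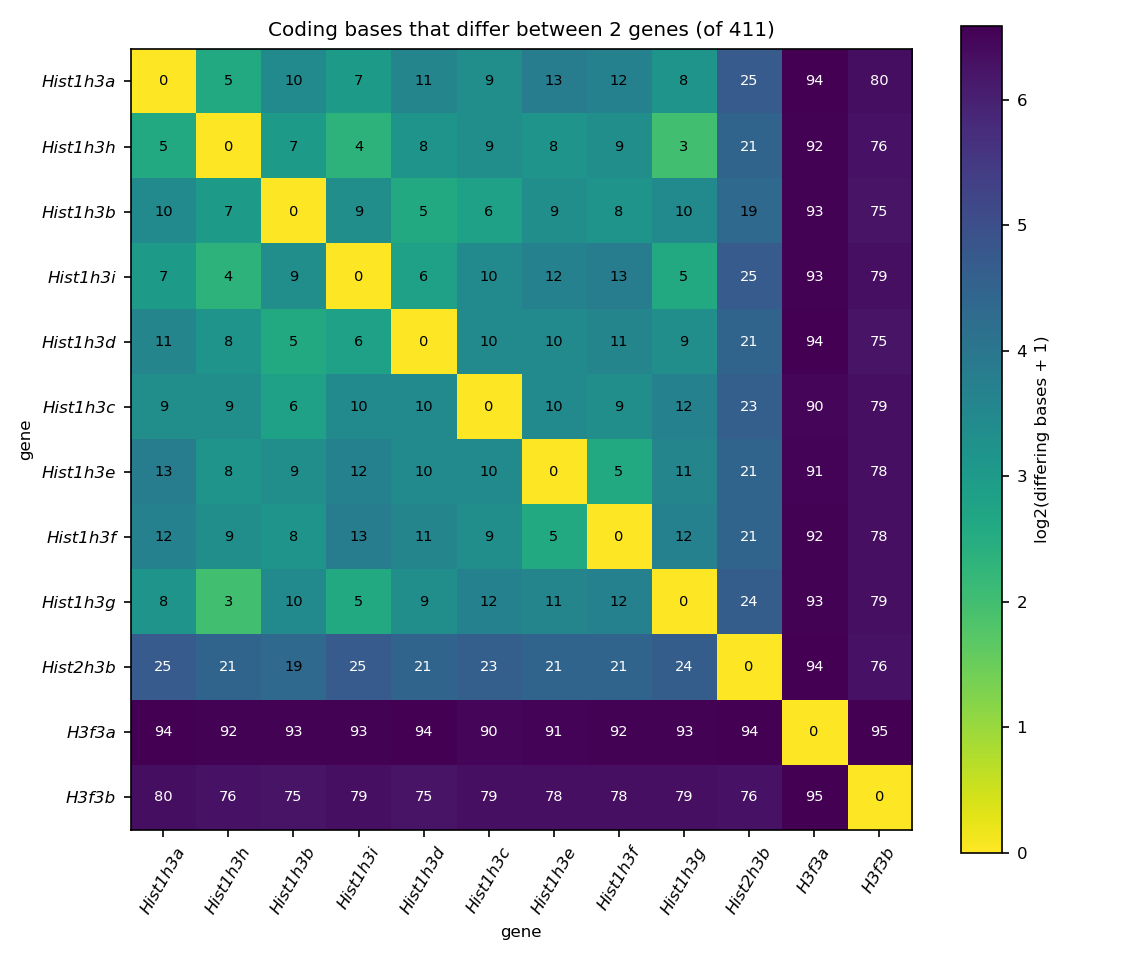
Number of coding bases, of 411, that differ between each pair of the 10 clustered H3 genes, H3f3a and H3f3b, with the colour on a log2 scale. The 9 Hist1 genes differ from each other at 3 to 13 positions, Hist2h3b at 19 to 25, and the 2 H3.3 genes at 75 or more.

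The checks of the targeted genes come first. *Daxx* was at 77.3 and 74.4 CPM in Daxx-/- mESCs and at 194 and 208 CPM with the DAXX transgene, a log2 difference of 1.41 (SE 0.18, adjusted p = 0.0212 by edgeR's quasi-likelihood test). *H3f3a* was at 460 and 390 CPM in Daxx-/- mESCs and at 5.36 and 11.4 CPM in H3.3 KO mESCs. It stayed between 2.94 and 5.04 CPM in the 4 H3.3-rescued libraries, which do not overlap the H3.3 KO libraries and are the lower. *H3f3b* was at 525 and 749 CPM in H3.3 KO mESCs, at 202 and 144 CPM with WT H3.3 and at 371 and 336 CPM with L126A-L130A H3.3. Its difference was -1.84 (SE 0.26, adjusted p = 0.0311) with WT H3.3 and -0.79 (SE 0.25, adjusted p = 0.164) with L126A-L130A H3.3. The labels do not say which part of each gene was deleted, so the reads of *Daxx* and *H3f3b* left in the knockout lines check nothing. Neither H3.3 gene was higher in an H3.3-rescued line than in H3.3 KO.

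The question of the H3.3 comparisons is which genes respond when H3.3 is put back. Among the clustered H3 genes the libraries with either H3.3 transgene stood far above all others. The 10 genes summed to 15.9 and 22.2 CPM in the H3.3 KO libraries, to 184 and 211 CPM with WT H3.3 and to 170 and 169 CPM with L126A-L130A H3.3, without overlap. The mean sums were 19.1 ± 4.47, 197 ± 18.9 and 170 ± 0.283 CPM (SD, n = 2), 10.3-fold and 8.89-fold above H3.3 KO. In the *Daxx* lines the sums were 15.9 and 13.4 CPM in Daxx-/-, in the range of or below H3.3 KO, and 4.98 and 4.41 CPM in Daxx-/-;WT, below all other libraries.

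**Figure D2:**
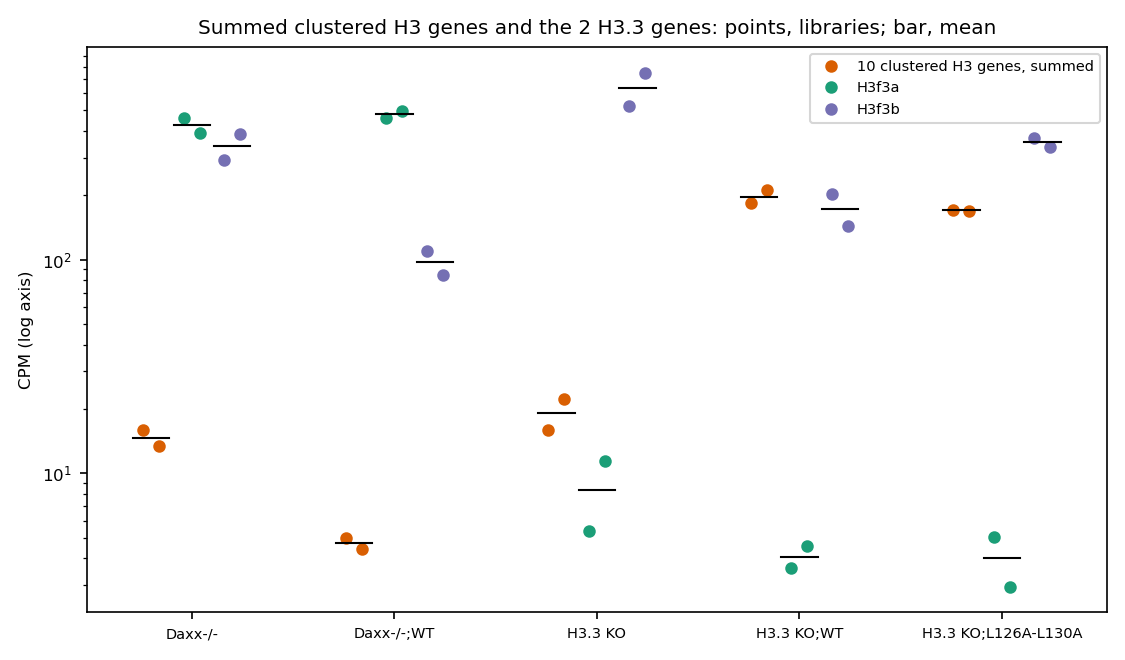
CPM on a log axis of the 10 clustered H3 genes summed, of H3f3a and of H3f3b, for the 2 libraries (points) and the mean (bar) of each line. The summed genes lie between 4.41 and 22.2 CPM in 6 libraries and between 169 and 211 CPM in the 4 libraries with an H3.3 transgene, in which H3f3a is at most 5.04 CPM.

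*Hist1h3a* had the largest difference. It was at 0.911 and 1.55 CPM in H3.3 KO, at 83.1 and 93.5 CPM with WT H3.3 and at 73.8 and 73.7 CPM with L126A-L130A H3.3. These are 15.59 and 23.94 expected counts against 1322.07 and 1553.56 and against 1140.76 and 1298.95. Every rescued library was above every H3.3 KO library. *Hist1h3a* rose by a log2 fold change of 6.18 (SE 0.28, adjusted p = 4.645e-05) with WT H3.3 and of 5.95 (SE 0.28, adjusted p = 6.207e-05) with L126A-L130A H3.3.

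*Hist1h3h* was the next in absolute level. It was at 5.0 and 4.87 CPM in H3.3 KO, at 53.0 and 71.0 CPM with WT H3.3 and at 57.9 and 61.3 CPM with L126A-L130A H3.3. The groups did not overlap, and the rises were 3.68 (SE 0.28, adjusted p = 0.00182) and 3.65 (SE 0.28, adjusted p = 0.00251) on the log2 scale. Without replicate 1 or replicate 2 of H3.3 KO the change with WT H3.3 was 3.71 or 3.66. The call was then lost, in fits that called fewer of all genes.

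*Hist1h3b* was at 0.754 and 1.19 CPM in H3.3 KO, at 23.0 and 24.2 CPM with WT H3.3 and at 13.5 and 9.24 CPM with L126A-L130A H3.3. It rose by 4.65 (SE 0.43, adjusted p = 0.00555) and by 3.63 (SE 0.42, adjusted p = 0.0155) on the log2 scale. All 4 rescued libraries were above both H3.3 KO libraries, and those with WT H3.3 were above those with L126A-L130A H3.3. The call with WT H3.3 was lost without any 1 of the 4 libraries compared, in fits that called fewer of all genes. The changes were 4.37 and 4.97 without replicates 1 and 2 of H3.3 KO and 4.65 and 4.64 without replicates 1 and 2 of H3.3 KO;WT. The call with L126A-L130A H3.3 was lost without replicate 1 or 2 of H3.3 KO (3.35 and 3.95) or replicate 1 of the L126A-L130A line (3.27). These fits, too, called fewer of all genes.

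*Hist1h3i* and *Hist1h3d* were above both H3.3 KO libraries in all 4 rescued libraries but did not pass the test. *Hist1h3i* was at 0.231 and 1.74 CPM in H3.3 KO, at 15.3 and 12.2 CPM with WT H3.3 and at 13.4 and 12.2 CPM with L126A-L130A H3.3. Its log2 fold changes were 3.85 (SE 0.84, adjusted p = 0.143) and 3.76 (SE 0.84, adjusted p = 0.0706), and without replicate 1 or replicate 2 of H3.3 KO they were 3.01 or 5.86 with WT H3.3 and 2.93 or 5.78 with L126A-L130A H3.3. *Hist1h3d* was at 1.15 and 1.52 CPM in H3.3 KO, at 3.98 and 5.79 CPM with WT H3.3 and at 5.21 and 10.2 CPM with L126A-L130A H3.3. Its log2 fold changes were 1.87 (SE 0.49, adjusted p = 0.181) and 2.54 (SE 0.50, adjusted p = 0.0543). DESeq2 called both genes with both transgenes, which makes 5 genes called in each comparison. DESeq2 called 213 genes in all with WT H3.3 and 444 with L126A-L130A H3.3, in either direction, against 33 and 104 by edgeR.

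The other 5 genes showed no such rise. *Hist1h3c* was at 4.18 and 6.92 CPM in H3.3 KO, at 3.61 and 2.01 CPM with WT H3.3 and at 2.78 and 1.23 CPM with L126A-L130A H3.3. Its 4 rescued libraries were all below the H3.3 KO libraries, with log2 fold changes of -0.95 (SE 0.54, adjusted p = 0.502) and -1.39 (SE 0.55, adjusted p = 0.242). *Hist2h3b* was at 1.71 and 0.484 CPM in H3.3 KO, at 0 and 0.544 CPM with WT H3.3 and at 1.36 and 0.348 CPM with L126A-L130A H3.3. Its groups overlapped, and the log2 fold changes were -1.94 (SE 1.21, adjusted p = 0.546) and -0.29 (SE 1.08, adjusted p = 0.923). It passed the filter in 2 libraries only, 1 of H3.3 KO and 1 of the L126A-L130A line.

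*Hist1h3e*, *Hist1h3f* and *Hist1h3g* reached 1 CPM in 1 library each, in all 3 cases replicate 2 of H3.3 KO. *Hist1h3g*, 3 coding bases from *Hist1h3h*, was at 0.595 and 1.18 CPM in H3.3 KO, at 0.374 and 0.293 CPM with WT H3.3 and at 0.304 and 0.412 CPM with L126A-L130A H3.3. Its rescued libraries lay below its H3.3 KO libraries, while those of *Hist1h3h* lay above theirs. *Hist1h3e* lay between 0.0787 and 1.49 CPM over the 10 libraries and *Hist1h3f* between 0.125 and 1.31 CPM. In a fit without the filter the log2 fold changes of the 3 genes were between -1.31 and -0.39 with both transgenes, with adjusted p from 0.570 to 0.874.

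**Figure D3:**
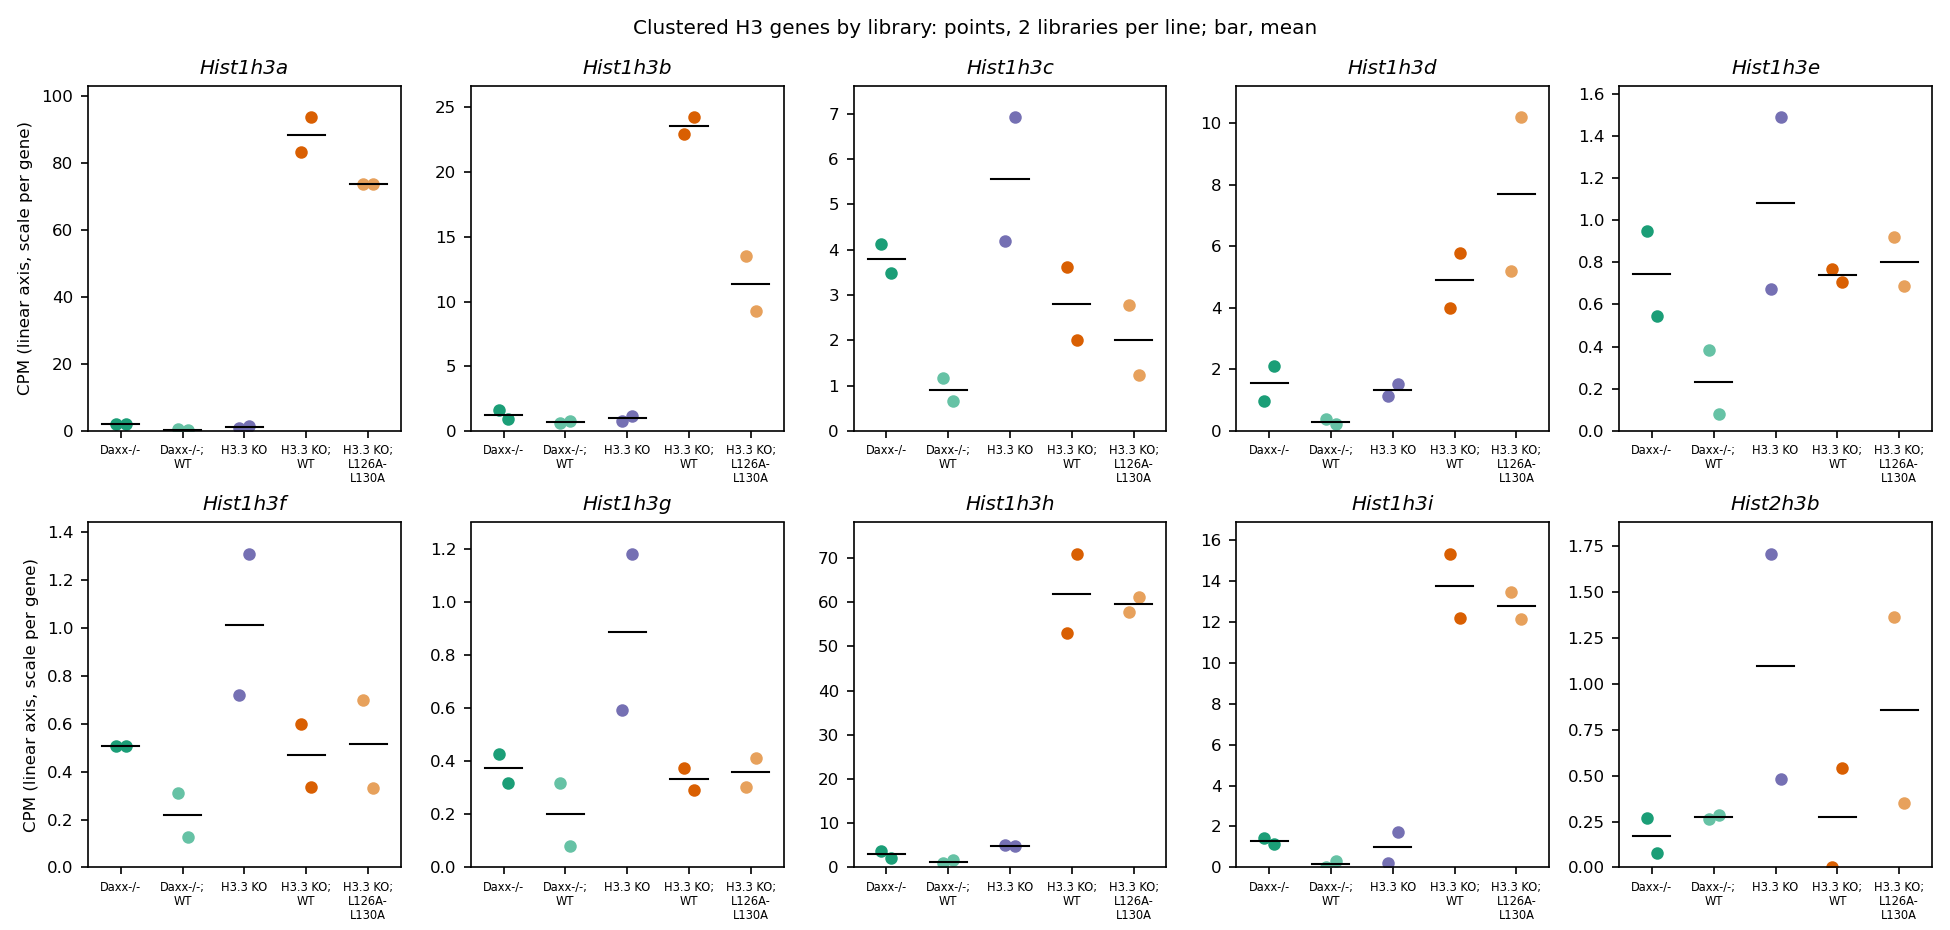
CPM of each of the 10 genes in each library (points, 2 per line) with the mean of the line (bar), on a linear axis with its own scale for each gene. Hist1h3a, Hist1h3b, Hist1h3d, Hist1h3h and Hist1h3i are highest in the 4 libraries with an H3.3 transgene, and the other 5 genes have their highest library in H3.3 KO.

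In all, 3 of the 7 genes tested were called higher with WT H3.3 (*Hist1h3a*, *Hist1h3b* and *Hist1h3h*), where 0.0379% of all 13201 genes tested were called higher. The same 3 genes were called higher with L126A-L130A H3.3, where 0.182% of all genes were. A gene was called at a Benjamini-Hochberg adjusted p under 0.05 over all genes tested and a change of at least 2-fold. In each comparison 5 of the 7 had both rescued libraries above both H3.3 KO libraries (25.9% of all genes with WT H3.3, 22.0% with L126A-L130A H3.3) and 1, *Hist1h3c*, had them below (29.7% and 27.0%). The 2 comparisons share the H3.3 KO libraries, so their values are not independent of each other.

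**Figure D4:**
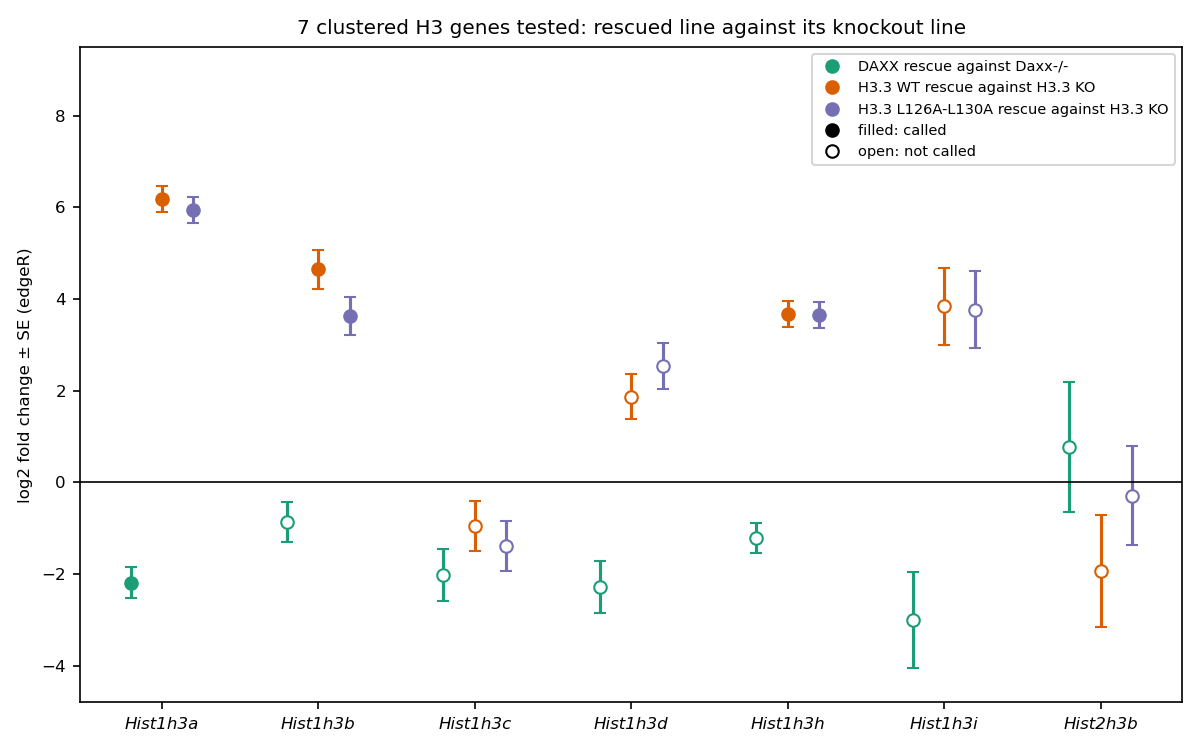
Log2 fold change with its SE (edgeR) of the 7 genes tested, for each rescued line against its knockout line, with called genes as filled points and others open. Hist1h3a, Hist1h3b and Hist1h3h are called higher with both H3.3 transgenes, and Hist1h3a is called lower with DAXX.

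The shares of the genes in the sum differed between the lines. *Hist1h3a* took 5.73% and 6.95% of the summed CPM in the H3.3 KO libraries, 45.3% and 44.4% with WT H3.3 and 43.4% and 43.5% with L126A-L130A H3.3. *Hist1h3c* took 26.3% and 31.1% in H3.3 KO and between 0.726% and 1.96% in the 4 rescued libraries. *Hist1h3a*, *Hist1h3b*, *Hist1h3d*, *Hist1h3h* and *Hist1h3i* together, a set formed after the values were seen and therefore not tested, took 48.8% to 72.2% of the sum in the 6 libraries without an H3.3 transgene and 96.4% to 98.2% in the 4 with one. Of the CPM that these 5 genes gained over H3.3 KO with WT H3.3, *Hist1h3a* made up 47.6%, *Hist1h3h* 31.1%, *Hist1h3b* 12.4%, *Hist1h3i* 6.97% and *Hist1h3d* 1.94%. With L126A-L130A H3.3 the shares were 46.6%, 35.1%, 6.68%, 7.58% and 4.08% in the same order of genes.

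**Figure D5:**
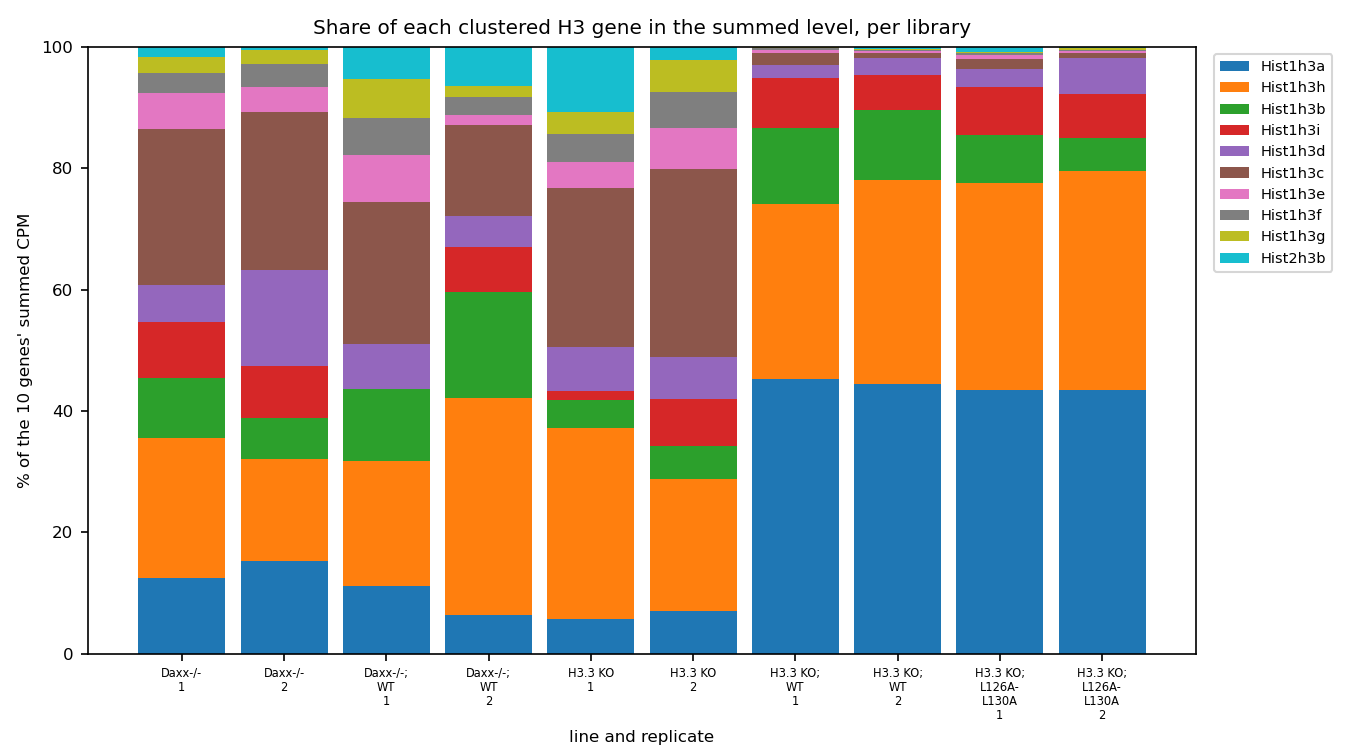
Share of each of the 10 genes in their summed CPM, for each library, stacked to 100%. Hist1h3a and Hist1h3h take most of the sum in the 4 libraries with an H3.3 transgene, and Hist1h3c shrinks from 26.3% or more in H3.3 KO to at most 1.96%.

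Per kilobase of RefSeq gene length, the order of the genes in the H3.3-rescued lines was another one than in H3.3 KO. Lengths depend on the annotation: *Hist1h3d* has 504 bases in RefSeq and 1249 in GENCODE, and *Hist1h3c* 480 and 630. The order and the overlaps below hold for the RefSeq lengths only. In H3.3 KO;WT, *Hist1h3a* (176 ± 14.6 CPM per kilobase, SD, n = 2) was followed by *Hist1h3h* (127 ± 26.1), *Hist1h3b* (47.6 ± 1.81), *Hist1h3i* (28.5 ± 4.60), *Hist1h3d* (9.70 ± 2.54) and *Hist1h3c* (5.85 ± 2.35), and no neighbours among these 6 overlapped. In the L126A-L130A line the order was *Hist1h3a* (147 ± 0.0734), *Hist1h3h* (122 ± 4.85), *Hist1h3i* (26.5 ± 1.89), *Hist1h3b* (22.9 ± 6.05) and *Hist1h3d* (15.3 ± 6.97), of which the last 3 overlapped with their neighbours. In H3.3 KO, *Hist1h3c* (11.6 ± 4.03) and *Hist1h3h* (10.1 ± 0.183) led and overlapped, and the remaining 8 genes were at 2.65 or less. Daxx-/- mESCs also had *Hist1h3c* (7.92 ± 0.922) and *Hist1h3h* (6.05 ± 2.06) first, followed by *Hist1h3a* (4.02 ± 0.0828). In Daxx-/-;WT, *Hist1h3h* (2.67 ± 0.803) and *Hist1h3c* (1.90 ± 0.747) led and overlapped.

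As profiles over the 10 libraries (log2(CPM + 1), Z-scored per gene), *Hist1h3a* was closest to *Hist1h3i* (Euclidean distance 0.588), *Hist1h3h* (0.618) and *Hist1h3b* (0.659), and stood at 4.62 from *Hist1h3c* and 4.80 from *Hist1h3g*. These distances are a description over 10 libraries in which all genes share the library depths, and reads can be shared between the genes.

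The same genes were compared between Daxx-/- mESCs with and without the DAXX transgene, which asks for the response to DAXX. Here the rescued line was the lower. The sum of the 10 genes was 3.12-fold lower with DAXX, at a mean of 4.70 ± 0.400 against 14.7 ± 1.81 CPM (SD, n = 2). *Hist1h3a* was at 1.99 and 2.05 CPM in Daxx-/- and at 0.551 and 0.282 CPM in Daxx-/-;WT, which is 11.78 and 4.98 expected counts in the rescued libraries. It fell by 2.19 on the log2 scale (SE 0.34, adjusted p = 0.0272) and was the only 1 of the 7 genes called, where 0.795% of all genes were called lower.

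The call of *Hist1h3a* with DAXX was lost without any 1 of 3 libraries and in the 4 libraries alone. All of these fits called fewer of all genes. The log2 fold change of *Hist1h3a* was -2.23 without replicate 2 of Daxx-/- and -2.84 without replicate 1 of Daxx-/-;WT. It was -1.78 without replicate 2 of Daxx-/-;WT and -2.19 when the 4 libraries were fitted alone (adjusted p = 0.298 by edgeR).

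Among the others, 5 had both DAXX-rescued libraries below both Daxx-/- libraries without passing the test, which with *Hist1h3a* makes 6 of 7, against 23.0% of all genes. *Hist1h3d* was at 0.973 and 2.11 against 0.372 and 0.228 CPM, with a log2 fold change of -2.28 (SE 0.57, adjusted p = 0.0763). *Hist1h3h* was at 3.67 and 2.24 against 1.03 and 1.58 CPM (-1.21, SE 0.32, adjusted p = 0.0823), and *Hist1h3c* at 4.12 and 3.49 against 1.17 and 0.659 CPM (-2.02, SE 0.57, adjusted p = 0.102). None of the 3 overlapped between the lines, and DESeq2 called all 3 lower, among 531 genes it called in all against 143 by edgeR. Summed fibroblast markers moved the same way, from 27.8 and 51.7 CPM in Daxx-/- to 13.4 and 23.5 CPM in Daxx-/-;WT over 8 genes. Of 4 primitive endoderm markers tested, 2 had an unadjusted p under 0.05 and none was called by edgeR, with a median log2 fold change of -1.27, and the sums over 6 genes were 5.5 to 17.2 CPM in Daxx-/- and 4.35 to 6.51 CPM in Daxx-/-;WT. The part of these markers in the result was not tested.

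*Hist1h3i* was at 1.45 and 1.14 CPM in Daxx-/- and at 0 and 0.328 CPM in Daxx-/-;WT, with a log2 fold change of -3.0 (SE 1.04, adjusted p = 0.152), and DESeq2 called it lower. Without replicate 1 or replicate 2 of Daxx-/-;WT its change was -1.96 or -7.54, the latter against a library at 0 and so no measure of size. *Hist1h3b* was at 1.59 and 0.904 against 0.594 and 0.770 CPM, a difference of -0.86 (SE 0.43, adjusted p = 0.279). *Hist2h3b* was at 0.268 and 0.0764 against 0.261 and 0.283 CPM, so that its groups overlapped. At an unadjusted p under 0.05, 5 of the 7 genes differed with DAXX, against 21.8% of all genes. *H3f3b*, which encodes H3.3, also fell with DAXX, from 293 and 388 to 109 and 85.1 CPM (log2 fold change -1.79, SE 0.26, adjusted p = 0.0244), whereas *H3f3a* was at 460 and 390 against 458 and 498 CPM (0.17, SE 0.31, adjusted p = 0.780).

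The L126A-L130A substitution was compared with WT H3.3 in the same KO background. None of the 7 clustered H3 genes was called by edgeR (0.250% of all genes were called higher and 0.265% lower) or by DESeq2, and 1, *Hist1h3b*, had an unadjusted p under 0.05. *Hist1h3b* differed by -1.02 (SE 0.35, 95% interval -1.82 to -0.22, adjusted p = 0.277), with 13.5 and 9.24 against 23.0 and 24.2 CPM. For *Hist1h3a* the difference was -0.24 (95% interval -0.70 to 0.23) and for *Hist1h3h* -0.03 (-0.59 to 0.53), both on the log2 scale. The intervals were wider for the genes of lower level, from -0.36 to 1.71 for *Hist1h3d*, from -1.69 to 1.53 for *Hist1h3i*, from -1.69 to 0.81 for *Hist1h3c* and from -1.14 to 4.44 for *Hist2h3b*. The ratio of the summed means was 0.861.

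Between the knockout lines, H3.3 KO against Daxx-/-, none of the 7 genes was called by edgeR, where 5.71% of all genes were called higher and 5.98% lower, and none by DESeq2. *Hist1h3a* alone had an unadjusted p under 0.05, at 0.911 and 1.55 CPM against 1.99 and 2.05 CPM (log2 fold change -0.78, SE 0.30, 95% interval -1.45 to -0.11, adjusted p = 0.0872). *Hist1h3h* was at 5.0 and 4.87 against 3.67 and 2.24 CPM (0.62, SE 0.29, adjusted p = 0.145), and without replicate 1 of Daxx-/- its difference was 1.09 with an adjusted p of 0.0232. Of the markers, Tbx3 was higher in H3.3 KO (345 and 525 against 195 and 172 CPM, adjusted p = 0.00485) and *Thy1* lower (7.78 and 6.52 against 22.0 and 36.8 CPM, adjusted p = 0.0084). The knockout, the strain and the origin of the lines cannot be told apart in this comparison.

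Other genes of the histone pathway were read from lists fixed by symbol. Of 56 clustered genes of H1, H2A, H2B and H4, the partners of H3 in the nucleosome, 25 were tested and none was called by edgeR in any rescued line. Over all 13201 genes tested, edgeR called 143 for DAXX, 33 for WT H3.3 and 104 for L126A-L130A H3.3. The absence of calls therefore says little about these 25 genes. Their median log2 fold change was -1.38 for DAXX (all genes tested, -0.024), -0.72 for WT H3.3 (all genes, 0.0156) and -0.822 for L126A-L130A H3.3 (all genes, 0.0296). At an unadjusted p under 0.05 there were 14 of the 25 for DAXX, 4 for WT H3.3 and 5 for the double substitution, against 21.8%, 13.3% and 16.9% of all genes. Between the rescued H3.3 lines the median was -0.081 and the count 0, with no gene called. Of all genes, 0.250% were called higher and 0.265% lower there.

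Between the knockout lines 4 of these 25 genes were called higher in H3.3 KO, where 5.71% of all genes were. *Hist1h2ah*, an H2A gene, was at 0.706 and 0 CPM in Daxx-/- and at 44.8 and 27.2 CPM in H3.3 KO (log2 fold change 6.46, SE 1.13, adjusted p = 0.00551). With 0.845 and 0 CPM in Daxx-/-;WT, it passed the filter only through the H3.3 lines, where it is high. Its change is taken against a library at 0 and so is no measure of size. *Hist1h2ao* was at 3.02 and 3.08 against 187 and 130 CPM (5.62, SE 0.27, adjusted p = 5.261e-05) and *Hist1h2ad* at 5.06 and 4.25 against 56.0 and 52.0 CPM (3.44, SE 0.28, adjusted p = 0.00054). *Hist1h4i*, an H4 gene, was at 1.09 and 2.01 against 8.35 and 8.84 CPM (2.41, SE 0.50, adjusted p = 0.0104). These H2A genes were already high in H3.3 KO. With WT H3.3 *Hist1h2ao* was at 170 and 142 CPM (0.01, SE 0.21, adjusted p = 0.990), *Hist1h2ad* at 82.7 and 67.7 CPM and *Hist1h2ah* at 12.6 and 8.22 CPM. They too belong to a family of near-identical genes.

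Lists of genes that make histone mRNAs or handle H3 protein were read beside the clustered H3 genes. Of all genes tested, 0.0379% were called higher with WT H3.3 and 0.182% with L126A-L130A H3.3. The absence of such calls in short lists therefore says little about their genes. In either direction edgeR called 143 of 13201 genes for DAXX, 33 for WT H3.3 and 104 for L126A-L130A H3.3. It called 68 for L126A-L130A against WT H3.3. Between the knockout lines 5.71% of all genes were called higher and 5.98% lower, so this limit is weaker there. All 11 listed genes for the transcription and 3′ end processing of histone mRNA (among them *Npat* and *Slbp*) were tested and none was called in any of the 5 comparisons by edgeR, with 1, 1, 1, 1 and 3 at an unadjusted p under 0.05 in the order DAXX, WT H3.3, L126A-L130A H3.3, L126A-L130A against WT, and H3.3 KO against Daxx-/-. Of 11 H3 chaperone genes, which include *Chaf1a*, *Asf1a*, *Hira* and *Atrx*, *Daxx* itself was called with the DAXX transgene and no other gene was in any comparison. At an unadjusted p under 0.05 there were 1, 3, 1, 1 and 2 chaperone genes in the same order. Of 18 S phase genes none was called, with 2, 1, 2, 3 and 9 at an unadjusted p under 0.05 in the same order, where 21.8%, 13.3%, 16.9%, 12.3% and 38.0% of all genes had one. The S phase medians were -0.0886 for DAXX, -0.0676 for WT H3.3 and 0.119 for the double substitution.

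Outside the clustered H3 genes, the 5 genes whose profile over the 10 libraries was most like that of the 10 genes' sum were *Mov10* (Euclidean distance 0.721), *LOC547349* (0.774), *Bzw2* (0.902), *Fbxo36* (1.11) and *Ccnh* (1.13). *LOC547349* reached 1 CPM only in the libraries with an H3.3 transgene (1.35 to 1.77 CPM) and was at 0 to 0.692 CPM elsewhere. It passed the filter only through the lines where the sum is high, so its likeness is partly set by the filter. *Mov10*, which encodes an RNA helicase, was at 199 and 216 CPM in H3.3 KO, at 267 and 319 CPM with WT H3.3, at 269 and 302 CPM with L126A-L130A H3.3, at 191 and 173 CPM in Daxx-/- and at 153 and 161 CPM with DAXX. Its order of lines was that of the sum but its log2 fold changes were far smaller, at 0.53 (SE 0.14, adjusted p = 0.175) with WT H3.3. *Ccnh*, which encodes cyclin H, was at 55.8 and 56.2 CPM in H3.3 KO and at 69.6 and 65.5 CPM with WT H3.3. None of the 5 was called in any comparison.

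The 250 bases before the RefSeq start were available for 8 of the 10 genes. All 8 hold CCAAT on either strand, against 33.8% of 32851 promoters, and 5 hold TATAA on either strand, against 22.8%. The letters were searched on both strands, and CCAAT and TATAA can overlap by 1 base. The windows of *Hist1h3h* and *Hist1h3g* are shown because their coding sequences are the closest pair and only *Hist1h3h* rose with the H3.3 transgenes. *Hist1h3g* was under the filter, no fall of it was shown, and the split of reads between the pair is an estimate. Both windows are from GRCm38.p6, 5′ to 3′ on the plus strand, and capitals mark CCAAT and TATAA on either strand.
Hist1h3h (chr13:21717378-21717627, plus): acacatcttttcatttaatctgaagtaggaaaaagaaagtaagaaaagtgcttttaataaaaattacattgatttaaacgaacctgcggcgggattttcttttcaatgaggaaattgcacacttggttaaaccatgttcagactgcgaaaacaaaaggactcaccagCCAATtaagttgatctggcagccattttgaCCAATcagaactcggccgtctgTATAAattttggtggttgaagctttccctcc
Hist1h3g (chr13:23535168-23535417, plus): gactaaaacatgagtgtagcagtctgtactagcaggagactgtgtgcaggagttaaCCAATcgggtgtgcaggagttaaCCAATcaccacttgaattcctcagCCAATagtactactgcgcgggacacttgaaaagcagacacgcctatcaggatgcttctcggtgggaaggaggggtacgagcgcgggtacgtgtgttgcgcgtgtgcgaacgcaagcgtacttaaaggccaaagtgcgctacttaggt
*Hist1h3h* holds CCAAT 2 times and TATAA 1 time, and *Hist1h3g* holds CCAAT 3 times and no TATAA. No measurement at these windows was made in this experiment.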

How the data were processed

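PolyA RNA from 5 mESC lines with 2 libraries each was sequenced, and libraries were grouped by the genotype in their labels. Per the study's methods, Bowtie was the aligner and RSEM, left at its defaults, gave the expression estimates. The submitters' notes name mm9, and the annotation and the versions are not given in the sources used here. The values the authors deposited are RSEM expected counts per gene, not normalized, although they are named TPM: library totals lie between 15463625 and 21396585.

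Expected counts were rounded and fitted with edgeR 4.0.16 in R 4.3.3 (quasi-likelihood test, all 10 libraries in a single fit, median-of-ratios factors from 0.936 to 1.04, common dispersion 0.0522) over the 13201 genes that reached 1 CPM in 2 or more libraries. The study used EBSeq, which was not run here. CPM values are counts over the library total, without these factors. The SE is the size of the log2 fold change over the square root of F, and 95% intervals use the residual plus prior degrees of freedom. The floor of 3 counts covers counting error only.

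The gene family, gene lists and tests were chosen with earlier results of these data known. Genes were named if listed, if targeted, if called within a list (at most 4 for each list) or if among the 5 closest profiles. Alternatives covered other factors, other filters, DESeq2 1.42.0, limma 3.58.1, each comparison fitted alone, a replicate block, the fold threshold and each library left out. Upper quartile factors were added after seeing the data. Sequences came from GENCODE transcripts and the RefSeq promoter table (GRCm38), compared in Python 3.11.15 over ungapped coding sequences. The authors' own comparisons were not used.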

Additional observations from a re-analysis of the deposited data

Results flagged for a closer look

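For 3 of the 7 clustered H3 genes tested, the response to an H3.3 transgene differed from the response to the DAXX transgene by edgeR's test of the difference over all genes tested. All 3 rose with the H3.3 transgenes, and of the 3 only *Hist1h3a* was called lower with DAXX, so for *Hist1h3b* and *Hist1h3h* the difference does not show an opposite response. The WT H3.3 effect minus the DAXX effect was 8.37 on the log2 scale for *Hist1h3a* (SE 0.43, adjusted p = 0.000128), 5.51 for *Hist1h3b* (SE 0.60, adjusted p = 0.0246) and 4.90 for *Hist1h3h* (SE 0.42, adjusted p = 0.00586). The L126A-L130A H3.3 effect minus the DAXX effect was 8.14 for *Hist1h3a* (SE 0.43, adjusted p = 0.000164) and 4.87 for *Hist1h3h* (SE 0.42, adjusted p = 0.00617), while that of *Hist1h3b* was 4.49 (SE 0.60, adjusted p = 0.0747). By the same test, 13.9% of all genes had an unadjusted p under 0.05 for the WT H3.3 difference and 11.2% for the L126A-L130A H3.3 difference. The share of all genes at an adjusted p under 0.05 is not given here, so the count of 3 has no direct background. Both differences use the same *Daxx* libraries and the same H3.3 KO libraries. The families differ in strain, knockout and transgene, which cannot be told apart in this contrast.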

How the results depend on the processing

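Of 464 recomputed log2 fold changes of the 7 genes tested, 420 kept their direction and their side of the threshold. The calls over all genes moved with these settings, from 143 for DAXX, 33 for WT H3.3 and 104 for L126A-L130A H3.3 in the main fit. Under DESeq2 5 of the 7 genes were called in each of the 3 rescue comparisons, among 531, 213 and 444 genes in the same order. With L126A-L130A H3.3 5 were also called without a filter (of 203 genes called) and by limma on log2(CPM + 1) (of 173). Fitted on its 4 libraries alone, the comparison with DAXX called 0 (of 1 gene called over all) and that with WT H3.3 called 5 (of 330). With a replicate block, 4 genes were called for DAXX, 3 for WT H3.3 and 5 for the double substitution, among 621, 105 and 461. The labels do not say that equal replicate numbers share a batch, and the correlation of same-numbered deviations was 0.558 for DAXX, 0.281 for WT H3.3, 0.0625 for L126A-L130A H3.3, 0.41 between the H3.3-rescued lines and -0.0486 between the knockout lines, so the blocked fit is not read as a pairing.

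With 1 library left out, 0 to 2 genes were called with DAXX, 1 to 2 with WT H3.3, 2 to 3 with L126A-L130A H3.3 and 0 to 1 between the knockout lines. The lone library of a line was then taken to vary like the other lines. The sign turned in 9 such values, none of them called. For H3.3 KO against Daxx-/- the log2 fold changes ran from -0.8921 to 0.054 (*Hist1h3b*), from -0.6477 to 0.3116 (*Hist1h3d*) and from -2.5128 to 0.3353 (*Hist1h3i*). For the double substitution against WT H3.3 they ran from -1.1941 to 0.0906 (*Hist1h3c*), from -0.2689 to 0.1347 (*Hist1h3i*) and from -0.1961 to 0.1583 (*Hist1h3h*), and against H3.3 KO from -0.9333 to 0.4368 (*Hist2h3b*). The cause was not tested.

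Depth limits the lower genes: *Hist1h3e*, *Hist1h3f* and *Hist1h3g* had at most 23.04 expected counts in any library. Replicates of every line differed beyond counting noise (chi-square of 10.9 to 73.3 per gene).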

Other observations

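The 2 clustered H3 genes outside the list stayed low in every line. *Hist2h3c1* was at 0.223 and 1.09 CPM in H3.3 KO, at 0.808 and 0 CPM with WT H3.3 and at 0.553 and 0.228 CPM with L126A-L130A H3.3. *Hist2h3c2-ps*, annotated as a pseudogene by its symbol, was at 0.407 and 0.427 CPM in H3.3 KO and at 0.446 and 0.479 CPM with WT H3.3. Adding *H3f3a* and *H3f3b* to the 10 genes gave sums of 780 ± 15.4 CPM in Daxx-/- and 580 ± 10.6 CPM in Daxx-/-;WT (SD, n = 2). The sums were 664 ± 167 CPM in H3.3 KO, 374 ± 21.1 CPM in H3.3 KO;WT and 527 ± 26.4 CPM in the L126A-L130A line. In these polyA libraries the H3.3-rescued lines, highest in the clustered genes, were not highest in this sum. Most of the sum in H3.3 KO was *H3f3b* (525 and 749 CPM), a gene targeted in that line. The share of transgene reads was not tested, so the sum is no measure of total H3 mRNA.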
